A study of Mus musculus with 21 samples.

Results

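Hearts of G4D mice were compared with hearts of wild-type mice in the absence of pressure overload, with 5 G4D sham arrays set against 4 wild-type sham arrays. These are 9 of the 21 arrays of the series, and they were chosen by sample title, not by any measured value. G4D mice carry a targeted Gata4 gene and are described by the submitters as having reduced Gata4. In the published account of these mice, known from outside the files, they are heterozygous for an allele that lacks an exon in every cell, so the change is not limited to heart muscle cells. Sham operation repeated the banding surgery without touching the aorta, so both groups had been operated on. The other 12 arrays, 6 wild-type and 6 G4D, were made after transverse aortic constriction (TAC), in which a ligature narrows the aortic arch and loads the left ventricle, and they serve here as separate samples in which the same genotype difference could be measured. Strain, age, sex and the hour of collection are not given in the sources used here. No source says that the arrays of a group came from separate animals, so p-values measure a spread between arrays, which may be technical. That spread was pooled within the groups of all 21 arrays, so it is not that of the sham arrays alone.

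Gata4 is a zinc-finger transcription factor that binds GATA sequences in the promoters and enhancers of heart genes. It acts together with Nkx2-5, Mef2c, Tbx5 and Srf, its activity is limited by the cofactors Zfpm1 and Zfpm2 (Fog1 and Fog2), and Gata6 is a close relative in heart muscle. In the adult heart it is known for its part in the growth of muscle cells under load and in their survival.

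Each array gave 1 log2 value for each of 45101 probe sets. After quantile normalization between arrays and removal of dim probe sets, 13279 genes were tested with limma, each by its brightest probe set, in 1 fit of all 21 arrays. Differences are G4D less wild type on the log2 scale, so that 1 is a doubling, and are followed by the standard error of the fit. Genes whose p, adjusted over the whole table by Benjamini-Hochberg, lay below 0.05 are named as called. In the deposited values the medians of the 9 sham arrays ran from 4.31 to 5.10, and the correlation of an array with its own group was 0.969 or more across genes. Both lowest values, 4.31 and 0.969, were those of G4D sham 3. The arrays did not all sort by genotype: G4D sham 2, 4 and 5 each correlated best with a wild-type array, at 0.986 with wild-type sham 4, 0.988 with wild-type sham 3 and 0.979 with wild-type sham 3. The difference between the 3′ and 5′ actin control probe sets, a sign of RNA integrity, was 0.437 to 0.667 in wild-type sham and 0.385 to 0.628 in G4D sham, so the groups overlapped.

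The sources name the material as cardiac myocytes. The 20 cardiomyocyte markers, among them Myh6, Tnnt2 and Ryr2, had a mean value of 12.26 to 12.32 in the wild-type sham arrays and 12.23 to 12.30 in the G4D sham arrays. All 20 endothelial and all 20 fibroblast markers also passed the level filter, as did 24 of the 26 macrophage and myeloid markers, so the arrays carried signal for genes of other heart cells too. In such mixed material, fewer cells of a type and less RNA per cell cannot be told apart.

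One array stood apart by its atrial genes. In G4D sham 5 the atrial myosin light chains Myl7 and Myl4 had values of 11.67 and 13.07, against 4.004 to 5.42 and 7.49 to 7.79 in the other 4 G4D sham arrays. Nppa, the atrial natriuretic peptide, was at 12.69 there and at 9.88 to 10.51 in the other 4, and Bmp10, an atrial growth factor, was at 8.20 against 4.37 to 5.21. The second probe set of Sln, the atrial calcium pump regulator sarcolipin, read 12.88 in this array and 1.69 to 2.85 in the others, although both Sln probe sets lay below the level filter over all arrays. The mean of the 14 tested atrial markers was 6.90 to 7.32 in wild-type sham, 6.99 to 7.10 in the other 4 G4D sham arrays and 9.02 in G4D sham 5. The mean of the 10 adipocyte markers was also highest there, at 8.69 against at most 7.70, and so was that of the 20 fibroblast markers, at 8.83 against at most 8.58.

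**Figure D1:**
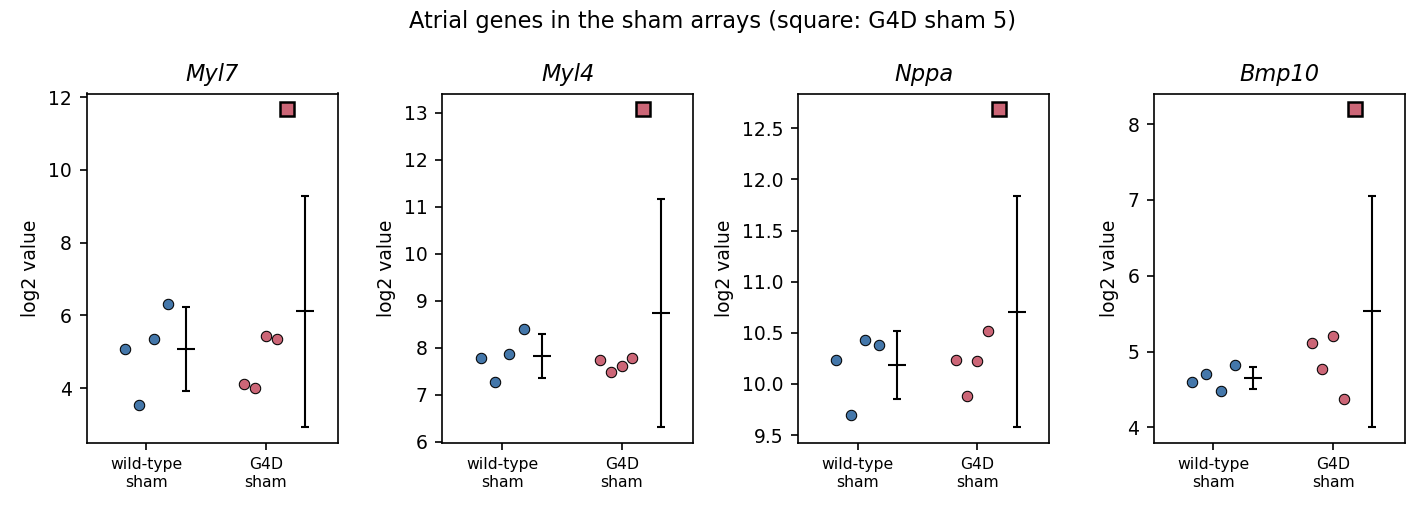
Log2 values of 4 atrial genes in each sham array (circles, and a square for G4D sham 5), with group mean and SD beside them (4 wild-type and 5 G4D arrays). G4D sham 5 lies above every other array for Myl7 (11.67), Myl4 (13.07), Nppa (12.69) and Bmp10 (8.20), and the other 4 G4D arrays overlap the wild-type arrays.

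Gata4 itself was the first gene examined. Its brighter probe set read 8.29, 7.93, 8.10 and 8.10 in wild-type sham and 7.90, 7.91, 7.70, 7.93 and 7.83 in G4D sham. The groups overlapped, since the highest G4D array just reached wild-type sham 2, and the difference of -0.25 ± 0.12 was not called (limma adjusted p = 0.612). After TAC the same probe set was higher in G4D by 0.17 ± 0.10 (adjusted p = 0.552), the opposite sign, with an interaction at an unadjusted limma p of 0.0148 (adjusted p = 0.432). The second Gata4 probe set differed in sham by -0.07 ± 0.31 in a fit of all probe sets. Whether either probe set lies within the deleted exon was not determined here, so these values do not check the labels. Gata6 read 8.02 to 8.20 in wild-type sham and 7.94 to 8.43 in G4D sham, a difference of 0.07 ± 0.11 that turned to -0.26 in the values as deposited and to -0.11 with arrays centred on their medians.

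Between the genotypes in sham, 7 of 13279 genes were called (0.0527%), 4 higher (0.0301%) and 3 lower (0.0226%) in G4D. Without G4D sham 5 the count was 5 (0.0377%), with 1175 genes at an unadjusted p under 0.05 (8.85%) and 586 with groups apart (4.41%). An unadjusted p under 0.05 was reached by 1073 genes (8.08%), 502 of them higher (3.78%) and 571 lower (4.3%). The groups did not overlap for 385 genes (2.9%), 166 higher (1.25%) and 219 lower (1.65%). The median difference over all tested genes was -0.01. The size of the called set was unstable: 1 gene was called without wild-type sham 1 or without wild-type sham 2, and 27 without G4D sham 2. The split of calls also moved with the scaling, from 4 higher and 3 lower to 0 higher and 3 lower in the values as deposited, where the median of all genes shifted to -0.28, and to 1 higher and 3 lower with arrays centred on their medians, where it shifted to -0.12.

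Klhdc8a, a gene of the kelch-repeat family, fell the most. It read 7.65, 7.54, 7.18 and 7.82 in wild-type sham and 5.38, 6.34, 5.92, 5.69 and 6.04 in G4D sham. The highest G4D array lay well below the lowest wild-type array, and the difference was -1.67 ± 0.21 (adjusted p = 0.00172), a 3.19-fold lower level. A second probe set of the gene differed by -1.21 ± 0.22. Klhdc8a was called in each of the 9 fits that left out 1 sham array and in each of 11 other settings, with differences between -1.90 and -1.44. In the TAC arrays it was lower again, by -0.99 ± 0.18 (adjusted p = 0.0034), with 7.15 to 7.93 in wild type and 5.83 to 6.89 in G4D.

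Tnfaip2, known as a target of TNF signalling, fell as well. The wild-type sham arrays read 8.51, 8.58, 8.30 and 8.47 and the G4D sham arrays 7.004, 7.58, 7.81, 7.42 and 7.42, with no overlap. The difference was -1.02 ± 0.16 (adjusted p = 0.00884), and -1.01 without G4D sham 5. Of the other probe sets of the gene, one differed by -0.69 ± 0.16 and a dimmer one by 0.13 ± 0.14, so the probe sets disagreed. After TAC the genotypes overlapped and differed by -0.17 ± 0.14. The test of the change in the genotype difference gave an unadjusted p of 0.000623 and an adjusted p of 0.17 (limma), so it was not called.

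The third gene that fell was Gm26782, a predicted gene on chromosome 14, which also carries Gata4. Its values were 5.89, 5.79, 5.60 and 5.55 in wild-type sham and 3.97, 5.52, 4.25, 4.24 and 4.02 in G4D sham. The groups did not overlap, but G4D sham 2 lay just below the lowest wild-type array while the other 4 were far below. The difference was -1.31 ± 0.22 (adjusted p = 0.0163), and without G4D sham 5 it was -1.22 with an adjusted p of 0.0793. After TAC the same direction was measured with a difference of -1.71 ± 0.19 (adjusted p = 2.34e-05), 5.66 to 6.08 in wild type against 3.95 to 4.59 in G4D. Most G4D values in both comparisons lay below the filter level of 4.35, so the gene passed through wild type and the size of its differences is not firm.

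Among the genes that rose was Myot, which encodes myotilin, an actin-binding protein of the Z-disc. Wild-type sham read 8.63, 8.97, 9.37 and 8.84 and G4D sham 10.50, 9.43, 10.59, 10.91 and 10.06. The lowest G4D array, G4D sham 2, lay just above the highest wild-type array, wild-type sham 3. The difference was 1.35 ± 0.21 (adjusted p = 0.00884), 1.41 without G4D sham 5 (adjusted p = 0.0336). After TAC Myot was higher by 1.66 ± 0.18 (adjusted p = 2.34e-05), with 9.03 to 9.52 in wild type and 10.65 to 11.11 in G4D.

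Ccn2, the connective tissue growth factor, a matricellular protein of the TGF-beta and YAP/TEAD pathways, also rose. Its values were 8.46, 7.92, 8.17 and 8.56 in wild-type sham and 9.67, 9.16, 9.31, 9.72 and 10.08 in G4D sham. The groups did not overlap and G4D sham 5 was the highest array. The difference was 1.31 ± 0.23 (adjusted p = 0.0304), and without G4D sham 5 it was 1.19 with an adjusted p of 0.0973. After TAC the difference was 1.34 ± 0.20 (adjusted p = 0.000677), with 9.38 to 10.17 in wild type and 10.15 to 11.52 in G4D.

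Ankrd1, the cardiac ankyrin repeat protein of the sarcomere and nucleus, rose by 0.95 ± 0.15 (adjusted p = 0.00884). Wild-type sham read 10.39, 10.56, 11.02 and 10.60 and G4D sham 11.77, 11.58, 11.00, 11.72 and 11.88. Here the groups overlapped, because G4D sham 3 lay just under wild-type sham 3. Without G4D sham 5 the difference was 0.87 (adjusted p = 0.0425), and a second probe set differed by 0.69 ± 0.17. After TAC both genotypes were high, 12.03 to 12.43 in wild type and 12.40 to 12.69 in G4D, and differed by 0.28 ± 0.13 (adjusted p = 0.359).

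Calls other than that of Klhdc8a depended on single arrays. Ankrd1, Myot and Tnfaip2 were called in 7 of 9 fits with 1 sham array left out, and lost the call without wild-type sham 1 (limma adjusted p = 0.0701 for each) or without wild-type sham 2 (adjusted p = 0.0635 for each). Ccn2 was called in 3 of 9, and lost the call without wild-type sham 1, 2 or 3 or G4D sham 1, 4 or 5, with adjusted p between 0.0701 and 0.165. Gm26782 was called in 3 of 9, and lost the call without wild-type sham 1 or 2 or G4D sham 1, 3, 4 or 5, with adjusted p between 0.0509 and 0.0911. Their differences kept their direction in all of these fits, between 0.86 and 1.09 for Ankrd1, 1.19 and 1.56 for Myot and 1.19 and 1.42 for Ccn2. With only the 9 sham arrays fitted, Klhdc8a stayed called, but none of these other genes did. The limma adjusted p was then 0.291 for Myot and Ankrd1, 0.328 for Gm26782, 0.0729 for Ccn2 and 0.0669 for Tnfaip2.

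**Figure D2:**
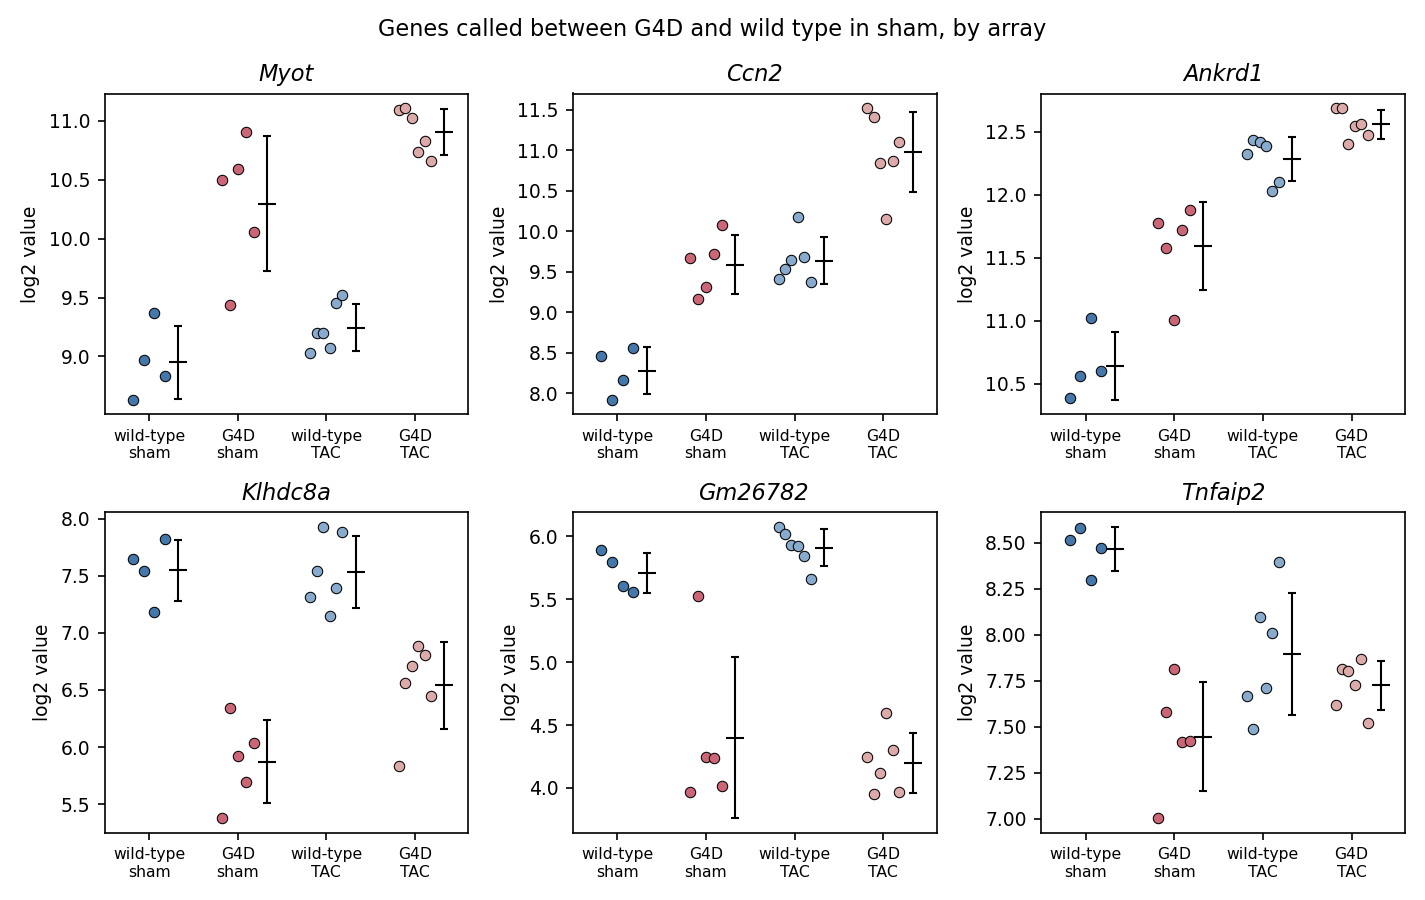
Log2 values of 6 genes called between G4D and wild type in sham, by array (circles) in all 4 groups, with group mean and SD beside them (4, 5, 6 and 6 arrays). In sham only Ankrd1 overlaps between the genotypes, and Klhdc8a, Gm26782 and Myot are also apart after TAC.

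The promoters of Ankrd1, Klhdc8a and Tnfaip2 are shown because Gata4 and TEAD factors act through short DNA motifs and these genes were called. No window is shown for Ccn2, Myot or Gm26782, which were also called, so these promoters do not stand for the called set. The 250 bases before each start site were taken from RefSeq (GRCm38.p6), 5′ to 3′, and capitals mark GATA motifs (AGATAA and its variant AGATAG, together with TGATAA and the variant TGATAG), the TEAD motif GGAATG and the E-box CACGTG, each searched on both strands.
Ankrd1, chr19:36119845-36120094, minus strand: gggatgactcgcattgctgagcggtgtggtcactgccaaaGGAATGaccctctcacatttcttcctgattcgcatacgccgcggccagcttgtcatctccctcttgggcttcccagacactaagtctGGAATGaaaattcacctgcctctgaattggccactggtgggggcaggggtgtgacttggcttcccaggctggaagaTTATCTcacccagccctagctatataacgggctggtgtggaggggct
Klhdc8a, chr1:132298376-132298625, plus strand: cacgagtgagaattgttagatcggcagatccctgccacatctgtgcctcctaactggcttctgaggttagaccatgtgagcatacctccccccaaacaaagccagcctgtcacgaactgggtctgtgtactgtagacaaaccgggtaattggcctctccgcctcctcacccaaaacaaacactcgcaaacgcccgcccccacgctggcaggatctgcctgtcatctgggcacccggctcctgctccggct
Tnfaip2, chr12:111442411-111442660, plus strand: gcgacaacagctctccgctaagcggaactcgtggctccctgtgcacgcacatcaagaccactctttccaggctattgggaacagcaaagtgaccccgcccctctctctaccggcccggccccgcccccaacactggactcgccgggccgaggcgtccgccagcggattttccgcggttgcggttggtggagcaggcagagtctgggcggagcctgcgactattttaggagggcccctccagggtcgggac
The Ankrd1 window held 2 TEAD motifs and, nearest to the start site, 1 GATA motif read on the opposite strand. The Klhdc8a and Tnfaip2 windows held none of these letters. Of 32851 RefSeq promoter windows of this length, 26.5% held a GATA motif, 12.6% a TEAD motif and 6.02% an E-box, so a match is a description of the window and not evidence of binding. These genes were chosen after their values were seen.

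Since the TAC arrays share no sample with the sham arrays, both comparisons can be read side by side. Their p-values are not independent, because both tests used the same estimate of each gene's spread from 1 fit. After TAC, 446 genes were called (3.36%), 278 higher (2.09%) and 168 lower (1.27%), and 1781 had an unadjusted p under 0.05 (13.4%). The count and its split moved with the scaling, to 56 higher and 8 lower in the values as deposited and 153 higher and 31 lower with arrays centred on their medians. Among the 446 were 4 genes also called in sham, namely Ccn2, Gm26782, Klhdc8a and Myot, each in the same direction. These are 57.1% of the sham calls and 0.897% of the calls after TAC, shares that hold for quantile normalization only. Over all tested genes the direction was the same in 52.6%, with a correlation across genes of 0.18 (13279 genes, which are not independent replicates). Of the 166 genes higher and apart in sham, 92 were also higher after TAC (55.4%), and of the 219 lower and apart, 146 were also lower (66.7%).

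The test of the change in genotype difference between sham and TAC called 2 genes (0.0151%), Synpo2 and Uck2, which are named here after their values were seen, and 1110 genes had an unadjusted p under 0.05 (8.36%). Uck2, a uridine-cytidine kinase of pyrimidine salvage, read 6.90, 6.91, 7.20 and 6.998 in wild-type sham and 6.01, 6.63, 6.08, 6.45 and 6.12 in G4D sham. The sham groups did not overlap, with a difference of -0.74 ± 0.23 that was not called (limma adjusted p = 0.32), while after TAC G4D was higher by 1.11 ± 0.20 (adjusted p = 0.00286), which gave an interaction of 1.85 ± 0.31 (adjusted p = 0.0358). Synpo2, a Z-disc partner of actin, differed by -0.07 ± 0.11 in sham and by 1.16 ± 0.09 after TAC, and its interaction was 1.23 ± 0.14 (adjusted p = 0.000355).

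The largest differences among genes whose sham groups were apart reached no adjusted threshold apart from those already called. On the higher side Bex1, a small brain-expressed X-linked protein, read 6.11, 5.98, 6.01 and 5.64 in wild-type sham and 8.47, 6.21, 7.26, 8.46 and 6.77 in G4D sham. G4D sham 1 and 4 were far above the rest and G4D sham 2 was close to wild type, and the difference was 1.496 ± 0.33 (limma adjusted p = 0.126). After TAC it was 1.56 ± 0.28 (adjusted p = 0.00292), so Bex1 was called there.

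Among the other high genes, Zbtb16, a transcriptional repressor, differed by 1.26 ± 0.37, Adh1, an alcohol dehydrogenase, by 1.26 ± 0.30, and Inmt, an amine methyltransferase, by 1.21 ± 0.42. Il33, a cytokine released by damaged cells, differed by 1.21 ± 0.26, Lonrf1, a ring-finger protein, by 1.19 ± 0.24, Pdlim3, a Z-disc LIM protein, by 1.02 ± 0.27, and Shld1, a subunit of the shieldin DNA repair complex, by 1.01 ± 0.22. After TAC the same genes differed by -0.28 (Zbtb16), -0.42 (Adh1), -0.10 (Inmt), 0.69 (Il33), -0.01 (Lonrf1), 0.39 (Pdlim3) and -0.43 (Shld1), none of them called. The limma adjusted p in sham ran from 0.0735 for Lonrf1 to 0.432 for Inmt. Pdlim3 read 7.01, 5.71, 5.77, 5.61 and 7.19 in G4D sham, so G4D sham 1 and 5 lay far above the rest. Without G4D sham 5 the difference was smaller for Pdlim3 (0.78), Inmt (1.04) and Il33 (1.11). It was 1.27 for Adh1 and 1.23 for Lonrf1.

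Lonrf1 and Il33 illustrate the separation. Lonrf1 read 5.87, 6.66, 6.98 and 6.34 in wild-type sham and 7.81, 7.47, 7.75, 7.71 and 7.53 in G4D sham, with the G4D arrays within a narrow band. Il33 read 3.08, 4.25, 4.03 and 3.91 against 5.02, 4.45, 4.93, 5.29 and 5.42, with G4D sham 2 nearest to wild type. All 4 wild-type values of Il33 lay below the filter level of 4.35, so the size of its difference is not firm.

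On the lower side, Retnla, a secreted product of alternatively activated macrophages and fat cells, read 6.66, 6.65, 5.86 and 6.53 in wild-type sham and 4.46, 5.67, 4.85, 5.23 and 5.35 in G4D sham. The groups were apart by a small margin, with a difference of -1.31 ± 0.43 (limma adjusted p = 0.352). It was called after TAC at -1.66 ± 0.37 (adjusted p = 0.0135), where the G4D values ran from 1.57 to 4.41, mostly below the filter level of 4.35, so that this size is not firm. Efnb3, a membrane-bound ephrin, differed by -0.79 ± 0.21 in sham (adjusted p = 0.24) and was called after TAC at -1.70 ± 0.18 (adjusted p = 1.52e-05). In sham it read 8.51 to 8.91 in wild type and 7.68 to 8.50 in G4D.

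The other low genes did not pass either test. Snhg14, a long non-coding host gene of small nucleolar RNAs, differed by -1.31 ± 0.33, Tfrc, the transferrin receptor that imports iron, by -0.97 ± 0.24, and Col5a3, a fibrillar collagen chain, by -0.91 ± 0.27. Snhg14 read 5.32 to 5.89 in wild-type sham and 3.30, 4.83, 3.29, 5.08 and 4.88 in G4D sham. G4D sham 1 and 3 lay below the filter level of 4.35, so the size of its difference is not firm. Tfrc read 10.23, 10.06, 9.96 and 10.44 in wild-type sham and 8.93, 8.34, 9.86, 9.46 and 9.43 in G4D sham, where G4D sham 3 nearly reached the wild-type range, and the other Tfrc probe sets differed by -0.51 ± 0.50 and 0.01 ± 0.50, so the probe sets disagreed. Adra1b, the alpha-1B adrenergic receptor, differed by -0.89 ± 0.19, Cd274, the immune checkpoint ligand PD-L1, by -0.85 ± 0.25, and Slc41a3, a magnesium transporter, by -0.84 ± 0.25. After TAC, Tfrc and Col5a3 had differences of the opposite sign, 0.28 ± 0.20 and 0.51 ± 0.23, neither called.

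**Figure D3:**
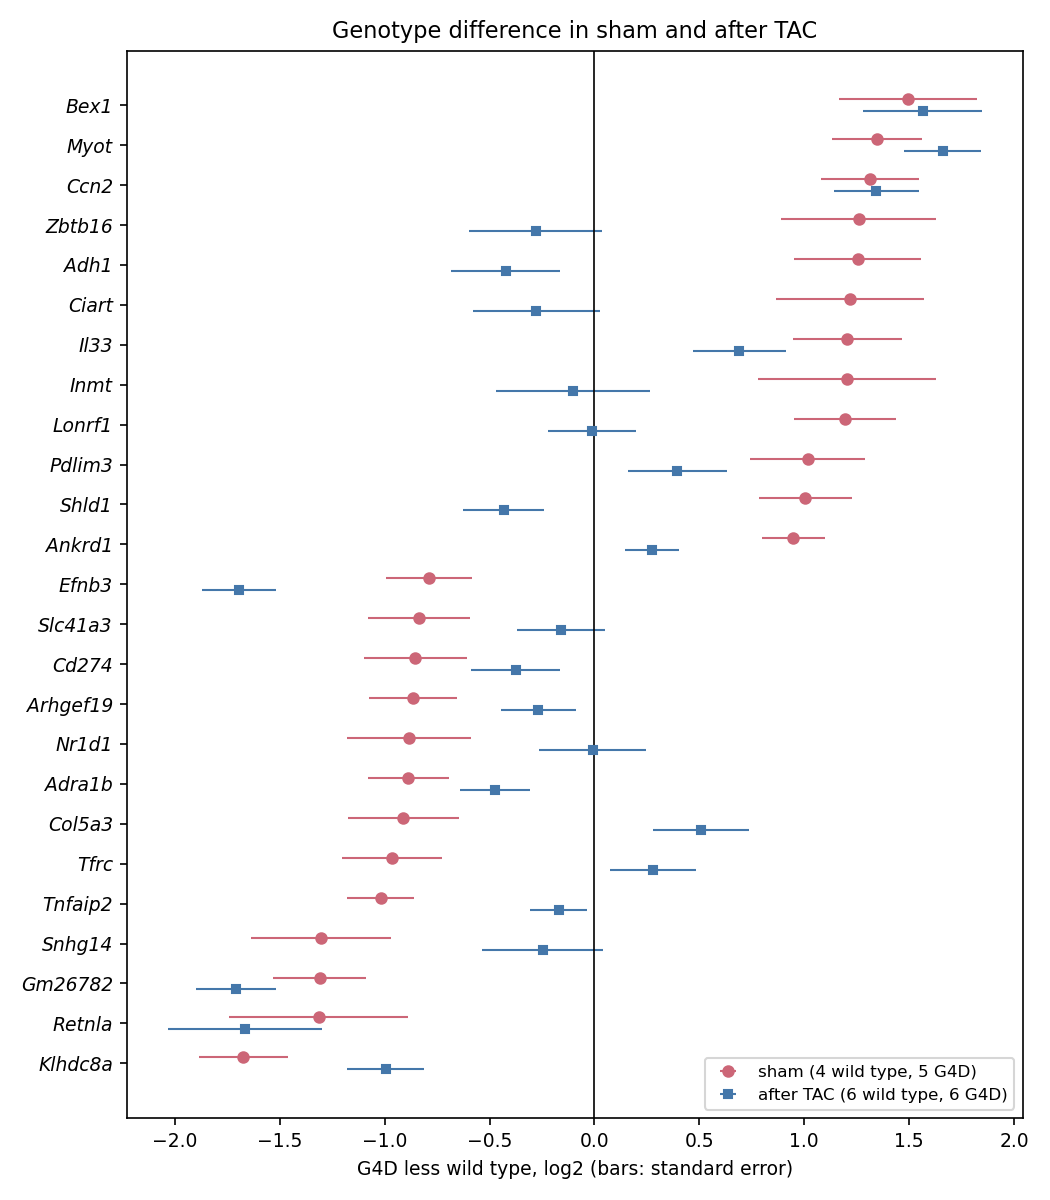
Genotype difference (log2, bars are standard errors) in sham (circles, 4 wild-type and 5 G4D arrays) and after TAC (squares, 6 and 6 arrays) for called genes and the genes with the largest differences in sham. Klhdc8a, Gm26782, Retnla, Efnb3, Myot, Ccn2 and Bex1 lie on the same side of 0 in both, while Zbtb16, Adh1, Ciart and Tfrc do not.

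Fetal and hypertrophic genes, which the loaded heart re-expresses, gave 2 calls, Ankrd1 and Ccn2, among 14 tested members, where 0.0527% of all genes were called. At an unadjusted p under 0.05, 6 were higher and 1 lower (50% of the list, against 8.08% of all tested genes). Members of this and the other lists were chosen with earlier results of these data known, so such shares only describe the lists. The median difference was 0.37, and 0.10 without G4D sham 5. Myh7, the slow fetal myosin heavy chain, read 9.16, 9.51, 8.82 and 8.59 in wild-type sham and 10.31, 8.73, 11.51, 11.35 and 11.23 in G4D sham. G4D sham 2 lay within the wild-type range while the other 4 arrays were above it, and the difference was 1.61 ± 0.40 (limma adjusted p = 0.209).

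Acta1, skeletal actin, showed the same array pattern. It read 10.63, 10.72, 11.70 and 11.13 in wild-type sham and 12.36, 10.44, 12.32, 12.30 and 12.15 in G4D sham, with a difference of 0.87 ± 0.28 (adjusted p = 0.358). Acta2, smooth muscle actin, read 9.66 to 10.03 in wild type and 10.89, 9.48, 10.79, 10.80 and 11.35 in G4D, a difference of 0.84 ± 0.23 (adjusted p = 0.242). G4D sham 2 was the lowest of all 9 arrays for both actins. Without that array limma called Myh7 at 2.08 (adjusted p = 0.000387), Acta1 at 1.23 (adjusted p = 0.000368) and Acta2 at 1.13 (adjusted p = 0.000177). Without G4D sham 5 instead, all 3 differences were smaller than with all arrays and none was called. They were 1.46 for Myh7 (limma adjusted p = 0.28), 0.81 for Acta1 (0.395) and 0.66 for Acta2 (0.317). What sets G4D sham 2 apart was not tested.

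Other members of the fetal list gave smaller values. Nppa differed by 0.52 ± 0.38, and by 0.03 without G4D sham 5, and Nppb, the B-type natriuretic peptide, by 0.15 ± 0.23. Fhl1, a LIM protein of stretched muscle, differed by 0.51 ± 0.15 in sham (adjusted p = 0.282) and was called after TAC at 1.32 ± 0.13 (adjusted p = 7.37e-06). Xirp1, an intercalated disc protein, was apart and lower in sham, 8.57 to 8.83 in G4D against 8.93 to 9.23 in wild type, a difference of -0.42 ± 0.12 (adjusted p = 0.282), and higher in G4D after TAC by 0.52 ± 0.11 (adjusted p = 0.00824).

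Among 37 tested sarcomere and Z-disc genes, 2 were called, Ankrd1 and Myot, against 0.0527% of all genes. At an unadjusted p under 0.05 were 6 higher and 1 lower (18.9%, against 8.08%), and the median was -0.01. The 20 cardiomyocyte markers had 0 calls by limma, 0 with an unadjusted p under 0.05, and a median of -0.01. Myh6, the adult fast myosin heavy chain, differed by -0.04 ± 0.07, Tnnt2, cardiac troponin T, by -0.12 ± 0.07 and Myoz2, a Z-disc calsarcin, by 0.13 ± 0.07.

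Of 21 tested genes reported elsewhere as direct Gata4 targets, 0 were called by limma, and 1 was higher and 2 lower at an unadjusted p under 0.05 (14.3%, against 8.08% of all genes). The median was 0.00. Agtr1a, the angiotensin II type 1 receptor, read 8.31, 8.28, 8.19 and 8.35 in wild-type sham and 7.69, 8.13, 7.19, 7.55 and 7.85 in G4D sham. All G4D arrays were below all wild-type arrays, the difference was -0.60 ± 0.16 (adjusted p = 0.24), and after TAC it was called at -0.68 ± 0.14 (adjusted p = 0.00654). Mef2c differed by -0.29 ± 0.11, Hand2 by -0.25 ± 0.13 and Nkx2-5 by -0.03 ± 0.12, none of them called.

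Cardiac transcription factors gave 0 calls among 29 tested by limma, with 2 higher and 5 lower at an unadjusted p under 0.05 (24.1%, against 8.08% of all genes) and a median of -0.05. Zfpm1, the Gata cofactor Fog1, read 6.98 to 7.18 in wild-type sham and 6.66 to 6.91 in G4D sham, with no overlap and a difference of -0.31 ± 0.09 (adjusted p = 0.26). Zfpm2, its heart counterpart Fog2, differed by 0.04 ± 0.11. Myocd, the Srf coactivator myocardin, differed by -0.56 ± 0.20 and Mrtfb, a related coactivator, by 0.39 ± 0.12, both with groups apart. Nfatc2, a calcineurin-dependent factor, differed by 0.59 ± 0.13 by its brightest probe set (adjusted p = 0.133), but a second, nearly as bright probe set differed by -0.16 ± 0.13, so the direction of the gene is uncertain.

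YAP and TEAD target genes had 2 calls among 22 tested, again Ankrd1 and Ccn2, which the fetal list also holds, where 0.0527% of all genes were called. At an unadjusted p under 0.05 were 3 higher and 0 lower (13.6%, against 8.08%), and the median was 0.05. Ccn1, the closest relative of Ccn2, differed by 0.00 ± 0.14 in sham and 0.54 after TAC, and Crim1, a transmembrane regulator of growth factors, by 0.58 ± 0.23 in sham (adjusted p = 0.496).

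In the extracellular matrix list, Ccn2 was the 1 call among 45 tested genes, where 0.0527% of all genes were called. At an unadjusted p under 0.05 were 5 higher and 1 lower (13.3%, against 8.08% of all genes), or 4 and 3 without G4D sham 5, and the median was 0.07. Timp3, an inhibitor of matrix metalloproteinases, read 8.11, 8.60, 8.63 and 8.05 in wild-type sham and 9.10, 8.93, 9.47, 9.14 and 9.58 in G4D sham. The groups were apart and all 4 probe sets of the gene differed by between 0.90 and 0.96, yet the adjusted p was 0.0657, and after TAC the difference was -0.04 ± 0.15. Bgn, the proteoglycan biglycan, was apart in sham with 9.39 to 9.72 against 9.85 to 10.40, a difference of 0.57 ± 0.16 (adjusted p = 0.24).

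Thbs4, a matricellular thrombospondin, differed by 1.04 ± 0.30 in sham (adjusted p = 0.28) and by 2.68 ± 0.26 after TAC (adjusted p = 7.37e-06). In sham it read 5.34 to 5.79 in wild type and 7.52, 5.61, 6.70, 7.10 and 6.03 in G4D, where G4D sham 2 lay within the wild-type range. The main fibrillar collagens were not called, Col1a1 differing by 0.04 ± 0.30 and Col3a1 by 0.07 ± 0.22, and the list median without G4D sham 5 was 0.02. Among 28 tested TGF-beta pathway genes Ccn2 was the 1 call, where 0.0527% of all genes were called. At an unadjusted p under 0.05 were 4 higher and 1 lower (17.9%, against 8.08% of all genes). Without G4D sham 5 these were 2 and 2, against 8.85% of all genes. Tgfb2 differed by 0.26 ± 0.24 and the signal transducer Smad3 by -0.44 ± 0.15, with dimmer Smad3 probe sets at 0.12 and 0.20.

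Circadian clock genes grouped here as evening-peaking had the highest median of the 27 function lists. The group holds the repressors Per and Cry, the PAR-bZIP factors Dbp, Tef and Hlf, and their partners. The hour at which each member peaks in mouse heart was not checked and may differ between members. The 13 tested members had a median of 0.53, and 0.48 without G4D sham 5. With limma 0 were called, 6 were higher and 1 lower at an unadjusted p under 0.05 (53.8%, against 8.08% of all tested genes), and for 4 higher and 1 lower the groups were apart (2.9% of all genes were apart). The members were chosen with earlier results of these data known, so these shares only describe the list. Ciart, a repressor of the Clock complex, read 5.09, 5.31, 5.35 and 4.30 in wild-type sham and 6.83, 6.42, 5.53, 6.74 and 5.63 in G4D sham, a difference of 1.22 ± 0.35 (limma adjusted p = 0.28).

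Tef read 8.24 to 8.65 in wild-type sham and 9.07 to 9.29 in G4D sham, a difference of 0.76 ± 0.22 (limma adjusted p = 0.274). Per3 read 5.41 to 6.53 and 6.77 to 7.23, a difference of 0.98 ± 0.38, and Hlf 5.96 to 6.71 and 6.75 to 7.15, a difference of 0.74 ± 0.31. These genes were apart between the groups, whereas Cry2 (0.56 ± 0.19), Per2 (0.53 ± 0.21) and Dbp (0.61 ± 0.38) overlapped. G4D sham 3 was the lowest G4D array for Ciart, Cry2, Per2 and Dbp.

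In the evening list 11 of the 13 tested members were higher in G4D, and Nr1d1 had the lowest difference. Nr1d1, the nuclear receptor Rev-erb alpha, read 8.11, 7.67, 7.74 and 7.60 in wild-type sham and 6.96, 7.23, 5.90, 7.41 and 6.98 in G4D sham, a difference of -0.88 ± 0.30 (limma adjusted p = 0.374), and its relative Nr1d2 differed by 0.29 ± 0.14. Clock and Arntl belong to a separate list of morning-peaking clock genes. Its 4 tested members had a median of -0.24, and -0.17 without G4D sham 5. With limma 0 were called, and 1 was lower at an unadjusted p under 0.05 (25%, against 8.08% of all genes). Clock, the activator that drives the loop, read 7.26 to 7.48 in wild-type sham and 6.51 to 7.03 in G4D sham. The difference was -0.52 ± 0.14 (limma adjusted p = 0.24), and the 3 dimmer Clock probe sets differed by -0.88 to -0.68. Arntl, the Clock partner Bmal1, differed by -0.09 ± 0.26.

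After TAC the evening list had a median of -0.11 and no member was called. Hlf differed there by -0.77 ± 0.27 and Ciart by -0.28 ± 0.30. The hour at which each heart was collected is not given in the sources used here, and its part in these values was not tested.

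**Figure D4:**
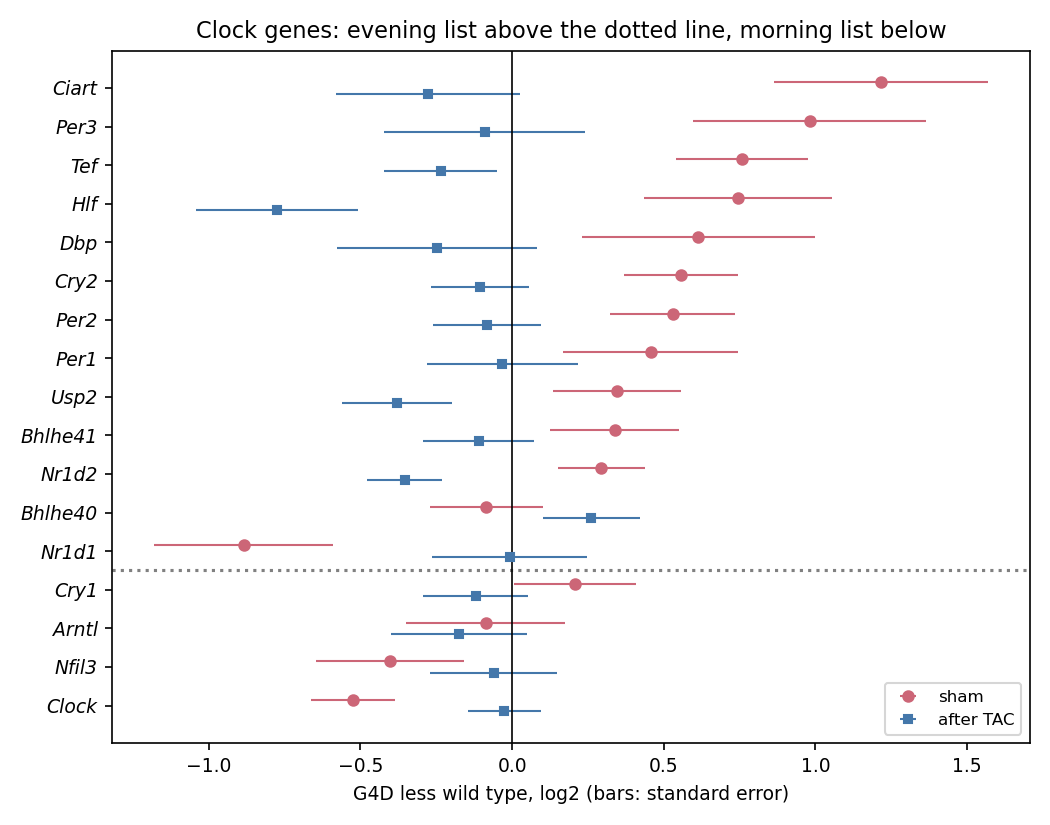
Genotype difference (log2, bars are standard errors) of 13 evening-peaking and 4 morning-peaking clock genes in sham (circles) and after TAC (squares). In sham 11 of the 13 evening genes lie above 0, with Ciart highest at 1.22 and Nr1d1 lowest at -0.88, and after TAC all but Bhlhe40 lie below 0.

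The Ciart promoter is shown because the E-box CACGTG is the element through which Clock and Arntl drive this loop. Its 250 bases before the start site (RefSeq, GRCm38.p6, 5′ to 3′) are given with the E-box in capitals.
Ciart, chr3:95882229-95882478, minus strand: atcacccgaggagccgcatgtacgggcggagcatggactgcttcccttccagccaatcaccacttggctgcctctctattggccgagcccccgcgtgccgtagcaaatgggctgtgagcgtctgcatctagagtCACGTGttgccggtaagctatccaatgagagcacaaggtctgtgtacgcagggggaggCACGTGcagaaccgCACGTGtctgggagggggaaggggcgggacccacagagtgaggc
This window held 3 E-boxes, against 6.02% of all windows with at least 1. The windows of Dbp and Nr1d1 in the same table held none, and each of the 2 Tef windows held 1.

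Receptor and second-messenger genes had 0 calls among 17 tested adrenergic and cAMP genes by limma, with 1 higher and 3 lower at an unadjusted p under 0.05 (23.5%, against 8.08% of all genes). Adra1b read 5.96, 5.58, 5.81 and 5.66 in wild-type sham and 4.76, 5.38, 4.54, 4.45 and 5.20 in G4D sham, with no overlap (adjusted p = 0.125), and was called at -1.01 without G4D sham 2 (adjusted p = 0.0194). Pde1c, a calcium-activated phosphodiesterase, differed by -0.63 ± 0.21 in sham and was called after TAC at -0.96 ± 0.18 (adjusted p = 0.00353). Among 16 tested potassium and sodium channels and connexins, 0 were called by limma, 3 were lower at an unadjusted p under 0.05 (18.8%) and the median was -0.13. Kcne1 and Kcnq1, the subunits of the slow delayed rectifier, differed by -0.58 ± 0.17 and -0.36 ± 0.12 in sham, and by -0.62 ± 0.15 and -0.42 ± 0.10 after TAC, where both were called (adjusted p = 0.022 and 0.0251). The Kcne1 values of G4D sham, 4.04 to 4.26, lay below the filter level.

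Energy metabolism genes had medians close to 0 in sham after quantile normalization. The 33 oxidative phosphorylation genes had a median of -0.02, the 18 citric acid cycle genes -0.04 and the 19 glycolysis genes -0.03, with 0 calls by limma and 0 genes at an unadjusted p under 0.05 in each. In the values as deposited these 3 medians were -0.38, -0.41 and -0.38, beside -0.28 for all genes, and with arrays centred on their medians -0.23, -0.25 and -0.23, beside -0.12. Fatty acid oxidation genes and PPAR targets had a median of -0.08 over 29 genes, with 4 lower and 0 higher at an unadjusted p under 0.05 (13.8%, against 8.08% of all genes) and 0 called, and 7 lower without G4D sham 5. Mlycd, malonyl-CoA decarboxylase, was apart and differed by -0.34 ± 0.12 (adjusted p = 0.432), and after TAC it was called at -0.40 ± 0.10 (adjusted p = 0.036). Ppargc1b, a coactivator of mitochondrial genes, differed by -0.33 ± 0.11 in sham.

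Stress and immune genes showed few calls. Tnfaip2 was the 1 call among 23 tested interferon and NF-kappaB response genes, where 0.0527% of all genes were called. At an unadjusted p under 0.05 were 2 higher and 2 lower (17.4%, against 8.08% of all genes). Relb, an NF-kappaB subunit, read 4.35, 4.60, 3.89 and 4.64 in wild-type sham and 3.52 to 3.76 in G4D sham, a difference of -0.74 ± 0.17 (adjusted p = 0.146), with 0.30 ± 0.14 after TAC. All its G4D sham values lay below the filter level of 4.35, so the size in sham is not firm. Hmox1, the haem-degrading oxygenase, read 5.45, 5.28, 5.44 and 5.48 in wild-type sham and 6.10, 5.79, 6.12, 5.75 and 5.79 in G4D sham. The groups did not overlap, the difference was 0.50 ± 0.10, and its adjusted p of 0.0713 was just over the threshold.

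Other stress genes gave smaller values. Ier5, an immediate early gene, was apart at 0.76 ± 0.19 (limma adjusted p = 0.24). Herpud1, a gene of the unfolded protein response, differed by 0.55 ± 0.19 in sham and -0.54 ± 0.17 after TAC, and Hsph1, a heat shock protein, by -0.37 ± 0.15 and 0.42 ± 0.13. Casp12, a caspase of the endoplasmic reticulum, differed by 0.52 ± 0.16 in sham and was called after TAC at 0.65 ± 0.14 (adjusted p = 0.0119).

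Further lists held no call by limma, and their genes at an unadjusted p under 0.05 are read against 8.08% of all genes. Calcium handling genes had a median of -0.05 over 19 tested, with 1 lower, and endoplasmic reticulum stress genes -0.01 over 22, with 1 higher. Heat shock genes had a median of -0.01 over 18, with 1 in each direction, and cell cycle genes 0.05 over 23, with 1 higher. Anti-apoptotic genes had a median of -0.05 over 16, with 1 higher and 2 lower (18.8%), among them the survival kinase Akt1, which was apart at -0.24 ± 0.10 (adjusted p = 0.5) and was called after TAC at -0.48 ± 0.08 (adjusted p = 0.00229). Insulin and IGF signalling genes had a median of 0.04 over 24, with 3 higher and 1 lower (16.7%), and angiogenesis and hypoxia genes -0.08 over 23, with 2 lower.

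Over the 27 function lists, 23 had a median within 0.1 of 0 after quantile normalization, and 22 without G4D sham 5. In the values as deposited, where all genes shifted to -0.28, most medians moved down with them, that of the channel list to -0.44, of the fatty acid list to -0.43 and of the evening clock list to 0.28. Calls were absent from 20 of them.

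**Figure D5:**
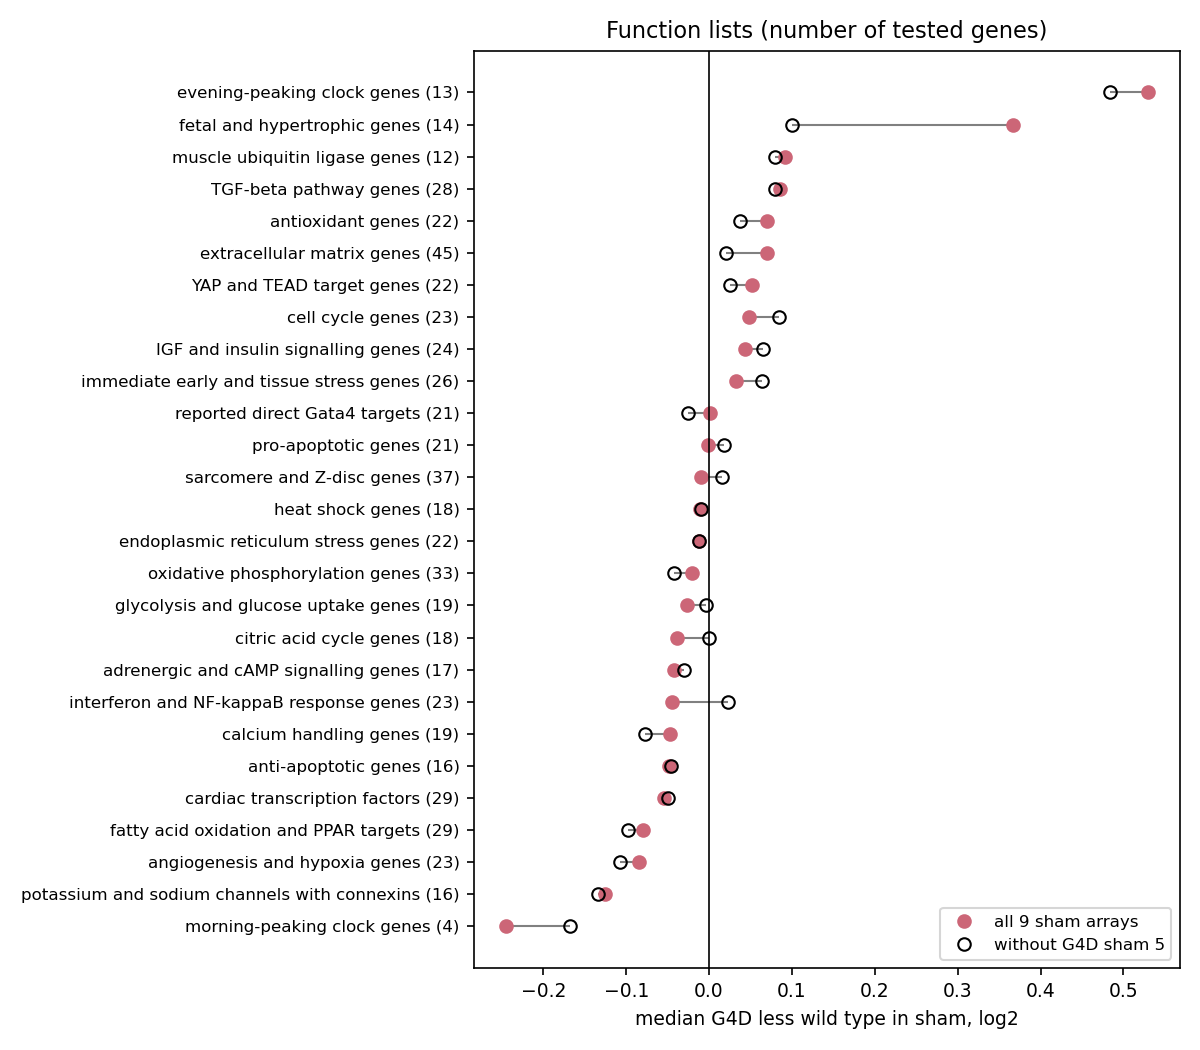
Median genotype difference in sham (log2) of each of 27 function lists, with all 9 sham arrays (filled) and without G4D sham 5 (open). The evening clock list is highest in both (0.53 and 0.48), and the fetal list moves the most without G4D sham 5 (0.37 to 0.10).

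Markers of other cell types were compared for the same arrays. None of the 14 cell type lists held a called gene by limma, and the number at an unadjusted p under 0.05 was 3 of 20 for fibroblast markers (1 without G4D sham 5), 2 of 20 for endothelial (1 without it), 1 of 13 for smooth muscle and pericyte, 2 of 24 for macrophage and myeloid and 0 of 6 for lymphocyte markers, against 8.08% of all genes. It was 2 of 5 for epicardial, 1 of 5 for skeletal muscle, 1 of 4 for conduction system, 1 of 9 for ventricular and 1 of 10 for adipocyte markers, and 0 for the cardiomyocyte, atrial, erythroid and Schwann cell lists. Fibroblast markers had a median of 0.12, and 0.03 without G4D sham 5. Macrophage and myeloid markers had a median of -0.12, and -0.05 without it, and Cx3cr1, a chemokine receptor of resident macrophages, differed by -0.98 ± 0.39 (adjusted p = 0.493), with G4D values from 2.22 to 4.59, mostly below the filter level. Their part in the differences of Retnla, Ccn2 and the matrix genes was not tested. The sex-linked gene Xist overlapped between the genotypes, at 3.85 to 5.60 in wild-type sham and 4.01 to 5.97 in G4D sham.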

How the data were processed

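The authors deposited 1 table of log2 values for 21 mouse expression arrays, made with PLIER, a probe-level summary, per the submitters' processing notes. Its version, background correction and any normalization are not given in the sources used here, and the log2 scale was read from the values (-13.5 to 15.1). No detection calls were used, so the depth of an array cannot be stated, and the number of arrays limits the precision.

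Groups came from the sample titles. Quantile normalization between arrays was applied. Of 45037 probe sets other than 64 controls, 34945 had 1 gene symbol, 932 several and 9160 none. Probe sets with 1 symbol and a mean at or above the 40th percentile (4.35) were kept, and the brightest represented each gene, 13279 genes in all. Symbols came from the platform annotation through RefSeq gene IDs (34741 matched). Of 795 list genes, 730 had a probe set and 676 were tested, and Ddx3y had no value. limma 3.58.1 in R 4.3.3 fitted 4 group means, with 17 residual degrees of freedom that the prior raised to 20.7. Tests were two-sided.

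Named genes were the called genes, the 12 largest differences each way among genes apart in sham with an unadjusted p under 0.01 (clone-type names left out unless called), the 2 members of each of 42 lists with the lowest p, and Gata4, Gata6, Xist, Ddx3y, Myl7, Myl4, Sln and Nppa. Of these 101 genes the text gives those its groups turn on. The members and lists were chosen with earlier results of these data known. 1 called gene, counted above, is not reported here. The fit was tested on simulated data. Alternatives changed the normalization, filter, probe-set rule, arrays fitted, array weights, eBayes and block. No source used here says that replicate numbers pair the arrays. Deviations of same-numbered sham arrays from their group means correlated across genes at 0.23, -0.34, -0.34 and -0.12. Those of differently numbered arrays ran from -0.26 to 0.41, so these values cannot decide whether the numbers pair the arrays.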

Additional observations from a re-analysis of the deposited data

Results flagged for a closer look

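In 10 of 200 groups of arrays looked at (each named gene in each sham group), 1 array lay far from the others by Dixon's criterion, and chance gives about 1 such group in 20. G4D sham 5 accounted for 4 of them, all atrial genes: Myl7 at 11.67, Myl4 at 13.07, Nppa at 12.69 and Bmp10 at 8.20. Myl7, Myl4 and Nppa were always named and Bmp10 came from the atrial list, with earlier results of these data known. These 4 flags therefore add no separate support. G4D sham 2 accounted for 2, Acta1 at 10.44, where the other G4D arrays read 12.15 to 12.36, and Gm26782 at 5.52, where they read 3.97 to 4.25. Single values were Clock at 6.51 in G4D sham 3 (others 6.88 to 7.03), Akt1 at 9.14 in wild-type sham 2 (others 9.26 to 9.29), Retnla at 5.86 in wild-type sham 3 (others 6.53 to 6.66) and Vwf at 6.85 in wild-type sham 4 (others 7.30 to 7.35).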

How the results depend on the processing

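The direction of the 6 called genes described held in every setting that tested them, and of these Klhdc8a alone was called in all 20. The number of sham calls was 7 as reported and 3 in the values as deposited, 4 with arrays centred on their medians, 15 with the filter at the 60th percentile, 12 with robust eBayes and trend, and 1 to 27 with 1 sham array left out. Of the genes called in the main setting, 7 were kept under array weights and under robust eBayes. With only the 9 sham arrays, 5 genes were called and 2 of the 7 were kept. Calls after TAC, 446 as reported, were 64 in the values as deposited, 184 with median centring and 828 with array weights. Interaction calls, 2 as reported, were 6 and 10 under these scalings, 1 without a filter, 14 at the 60th percentile, 0 with the mean of a gene's probe sets (1067 at an unadjusted p under 0.05), 24 with array weights, 6 with robust eBayes, and 1 to 2 with 1 sham array left out.

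With the replicate number as a block, sham calls were 3, calls after TAC 277 and interaction calls 1. Whether the numbers pair the arrays is not stated in the sources used here. Chosen after seeing the data, a block of 2 sets of arrays, split by the first component of deviations from the group means, gave 15 sham and 4 interaction calls, and leaving out G4D sham 1 and 3 gave 3 sham calls. The 2 sets were taken from the same values that were then fitted. A lower spread was thus built in, and the 15 and 4 calls are no support.

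No called difference reversed. The uncalled differences below did. In the values as deposited these were Alas2 -0.17, Ccnd3 -0.14, Cd8a -0.059, Fabp4 -0.23, Gata6 -0.26, Hspb1 -0.16, Mdh1 -0.21, Myh2 -0.062, Myoz2 -0.23, Tbx3 -0.17, Trim54 -0.15 and Xist -0.0043. With median centring they were Alas2 -0.021, Fabp4 -0.079, Gata6 -0.11, Hspb1 -0.0091, Mdh1 -0.058, Myoz2 -0.078, Tbx3 -0.017 and Trim54 -0.00017. With the mean of the probe sets they were Egr3 -0.073, Ighm 0.032, Mdh1 -0.019 and Uty 0.12, and without G4D sham 1 and 3 Cd8a -0.029 and Xist -0.29. With 1 sham array left out, the values ran from -0.0050 to 0.35 for Alas2, from -0.17 to 1.23 for Myl4, from -0.35 to 1.57 for Myl7, from -0.17 to 0.039 for Uty, from -0.11 to 0.48 for Xist. The cause was not tested.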

Other observations

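Gata4 lies on chromosome 14, and its neighbours were compared after the values were seen, by their order in the RefSeq table. Of 455 other tested genes on that chromosome, 49 had an unadjusted p under 0.05 in sham (10.8%), against 7.98% of 12797 genes on other chromosomes. Of the 100 genes within 50 places of Gata4, 12 did (12%), and of the 200 within 100 places, 20 did (10%). In both comparisons and in the same direction, an unadjusted p under 0.05 was reached by 13 genes of chromosome 14 (2.86%) and by 1.84% elsewhere. Among the chromosomes compared the highest such share was 3.24%, on chromosome 18. The 13 genes include Gm26782 and Myh7, and Vwa8, a mitochondrial AAA protein, 96 places from Gata4, which differed by -0.33 ± 0.09 in sham (limma adjusted p = 0.24) and -0.57 ± 0.08 after TAC (adjusted p = 0.000221). Spryd7, 10 places away on the other side, differed by -0.31 ± 0.10 (adjusted p = 0.329) and -0.61 ± 0.08 (adjusted p = 0.000295).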
